A study of Mus musculus with 19 samples.

Results

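Tmsb4x and Tmsb10, 2 of the 20436 genes in each count table, encode thymosin beta-4 and thymosin beta-10, and their rows were chosen by symbol with earlier results of these libraries known. Their changes after DHPG, and whether each passed a threshold, are therefore given as a description, with no p-value. The study treated hippocampal slices of wild-type male mice, aged 28 to 42 days, for 5 min with 100 µM dihydroxyphenylglycine (DHPG), an agonist of group 1 metabotropic glutamate receptors that induces long-term depression (LTD), or with artificial cerebrospinal fluid as vehicle (basal). All slices then received 100 µg/ml cycloheximide, which holds ribosomes on the mRNA. RNA-seq was available for 4 basal and 5 DHPG libraries and ribosome profiling for 5 basal and 5 DHPG libraries, 19 in all. RNA and ribosome-protected fragments (RPFs) with the same treatment and replicate number were taken to come from one lysate. Each replicate pooled the slices of several mice, and these slices kept area CA3, so the values are those of whole mixed tissue: fewer cells of a type and less RNA per cell cannot be told apart.

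The beta thymosins are short, mostly unstructured peptides that bind monomeric (G-)actin one to one and hold it back from polymerization, so they set the pool of free actin from which filaments grow. Dendritic spines are rich in actin filaments, and synaptic plasticity, LTD included, goes along with changes in spine actin. In brain, Tmsb4x is known from neurons and microglia, and Tmsb10 is best known from the developing nervous system. Profilin hands actin monomers to growing filament ends, cofilin severs filaments, and the coactivators Mkl1 and Mkl2 sense free monomers and act with the transcription factor Srf.

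Both reading frames are among the shortest in the table, and the part of them that the authors counted is shorter still. In mm10, with GENCODE annotation, Tmsb4x lies at chrX:167207093-167209315 on the minus strand, with 3 exons, a transcript of 768 nt and a coding sequence of 135 nt for 44 residues. Tmsb10 lies at chr6:72957347-72958748 on the minus strand, with 2 exons, a transcript of 690 nt and likewise 135 coding nt for 44 residues. RPFs were counted only inside the coding sequence after its first and last 30 nt were left out, which leaves 75 nt in each gene, or 48 possible positions for a footprint of 28 nt. The Tmsb4x coding sequence is shown to make plain how little of it could be counted, with the counted 75 nt in capitals.
Tmsb4x: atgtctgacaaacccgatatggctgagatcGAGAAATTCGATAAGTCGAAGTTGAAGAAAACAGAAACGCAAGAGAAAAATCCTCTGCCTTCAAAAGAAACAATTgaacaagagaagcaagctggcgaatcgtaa

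Both genes code for a conserved actin-binding motif. Its stretch is printed for each from coding base 46 to 69, 5′ to 3′, with codons 18 to 23 of the motif in capitals, because this is the functional core of the family and falls inside the counted part.
Tmsb4x motif: tcgaagTTGAAGAAAACAGAAACG
Tmsb10 motif: gccaagCTGAAGAAAACCGAGACG

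These stretches differ at 5 of 24 bases. Over the whole coding sequence the genes were identical at 95 of 135 bases (70.4%), and over the counted part at 56 of 75 (74.7%), where GC content was 34.7% in Tmsb4x and 53.3% in Tmsb10. Their longest shared run was 10 bases, so no exact footprint of 28 nt is common to both. None of the 48 counted 28-nt words of Tmsb4x, and none of the 709 60-nt words of its transcript, recurred in another annotated gene. All 48 counted words of Tmsb10 recurred in at least 1 of 7 other annotated genes, none of which is in the count tables. Since only uniquely mapped reads were kept, the Tmsb10 counts are uncertain in size, in RPF and, for 247 to 291 of the 60-nt words of each transcript, in RNA.

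Tmsb4x gave many RPFs and few RNA reads. In RPF its level was 773, 812, 812, 615 and 669 CPM (counts divided by the library total and scaled to a common size) in basal replicates 1 to 5, and 826, 812, 970, 615 and 644 CPM in the DHPG replicates. These are 4644 to 17906 fragments per library. In RNA it was 9.46, 11.1, 15.9 and 5.36 CPM in basal replicates 1 to 4, and 12.4, 14.8, 15.7, 8.56 and 8.90 CPM in DHPG replicates 1 to 5, from 38 to 103 reads. Within each assay the basal and DHPG values overlapped, and replicate 4 was the lowest of its group for both assays and both treatments.

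Tmsb10 showed the same contrast at a lower level. Its RPF level was 66.1, 67.4, 60.5, 46.9 and 60.9 CPM in basal replicates 1 to 5 and 74.4, 86.2, 74.6, 57.0 and 59.3 CPM in the DHPG replicates, from 402 to 1353 fragments. Its RNA was barely sampled, with 5, 3, 7 and 3 reads in the basal libraries and 3, 2, 6, 2 and 5 in the DHPG libraries, or 0.28 to 1.08 CPM. That is below the 1.64 CPM that a count of 10 stands for in an RNA library of median depth, so Tmsb10 failed the filter on low RNA counts and 1 of the 2 genes was tested in RNA, against both in RPF.

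**Figure D1:**
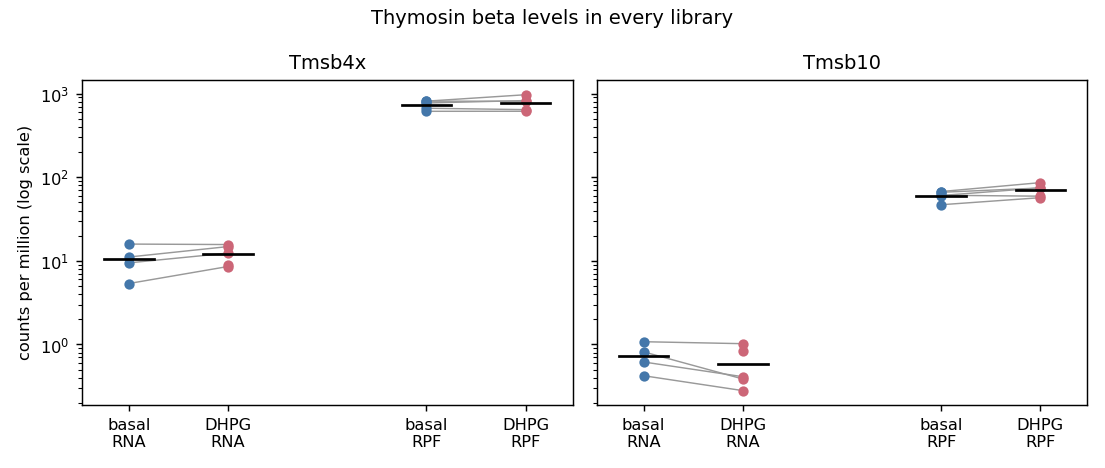
Level of each gene in every library in CPM on a log axis, RNA at left and RPF at right in each panel. Points are libraries, grey lines join basal and DHPG of one replicate number, and black bars are group means. For both genes all RPF points lie far above all RNA points, Tmsb4x from 615 to 970 CPM in RPF against 5.36 to 15.9 CPM in RNA, while basal and DHPG points overlap.

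Per length, Tmsb4x led the RPF libraries and ranked far lower in the RNA libraries. Its RPF level per kb of counted sequence was 8194 to 12935 CPM, the highest of 19510 genes with a coding model in all 10 libraries, while Actb, the cytoplasmic beta-actin, had 3525 to 4781. In RNA, per kb of transcript, Tmsb4x had 6.98 to 20.7 CPM and ranked 3576 to 7304, while Actb had 1970 to 2737 CPM. Tmsb10 ranked 111 to 225 in RPF, at 625 to 1149 CPM per kb, and 10850 to 12819 in RNA, at 0.407 to 1.56 CPM per kb. The counted regions have equal length, but the repeated words of Tmsb10 leave its count, and so the ratio of the genes, uncertain in size. As deposited, Tmsb4x had 12.3 ± 1.01 (SD, n = 5) fragments for each Tmsb10 fragment in basal libraries. In DHPG libraries it had 11.04 ± 1.28 (SD, n = 5), and the ranges of 10.98 to 13.4 and 9.42 to 13.0 overlapped. Taken by replicate pair, the ratio was lower after DHPG in each. It went from 11.7 to 11.1, 12.0 to 9.42, 13.4 to 13.0, 13.1 to 10.8 and 10.98 to 10.84 in pairs 1 to 5.

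The RPF to RNA ratio, RPF CPM divided by RNA CPM of one lysate, was high for both genes. The RNA behind it had been depleted of ribosomal RNA, fragmented and size-selected. The study also made poly(A)-selected RNA libraries in other batches, which were not analysed here, so whether the ratios depend on the RNA preparation was not tested. Tmsb4x had ratios of 81.7, 73.1, 51.2 and 114.7 in basal lysates 1 to 4 and 66.8, 54.8, 61.9, 71.9 and 72.3 in DHPG lysates 1 to 5. Tmsb10 had 81.0, 109.2, 56.1 and 110.9 in the basal and 192.4, 209.4, 73.0, 203.0 and 70.7 in the DHPG lysates, each resting on 2 to 7 RNA reads. Summed over the basal lysates the ratio was 75.3 for Tmsb4x (exact 95% interval 66.6 to 85.6, from 253 RNA and 41503 RPF reads) and 83.4 for Tmsb10 (52.7 to 141, from 18 and 3269). Gm20594 and Ost4, with 0 RNA reads in these lysates, had ratios of at least 200 and at least 90.5 when 3 counts are allowed over the group, above the summed ratio of either member. These intervals and bounds cover counting error only. The intervals of the members overlap, so at this depth no difference between the 2 genes was detectable.

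On a log2 scale with a prior count of 2, the basal ratio was 6.22 ± 0.46 (SD, n = 4 lysates) for Tmsb4x, above each of the other genes tested in both assays (12691 in all, without Gm20594 and Ost4). Tmsb10 had 5.86 ± 0.31 (SD, n = 4) with 2 of the 13208 genes tested in RPF above it. The prior count pulls down genes with few RNA reads, Ost4 (5.16) among them, so this and the following ranks depend on it. The median of all genes tested in both assays was -0.18. In single lysates Tmsb4x ranked between 1 and 4 and Tmsb10 likewise between 1 and 4 of 13208 genes. When each assay was divided by the length it was counted over, the log2 ratio was 9.57 for Tmsb4x, again the highest of 12723 genes with a length, and 9.07 for Tmsb10, with 4 genes above it.

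**Figure D2:**
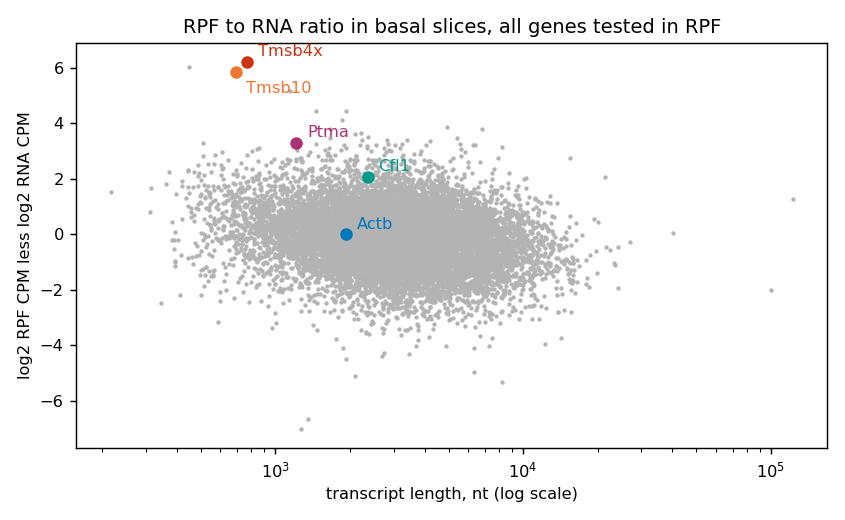
Basal log2 RPF to RNA ratio (log2 CPM in RPF less log2 CPM in RNA, mean of 4 lysates) against transcript length in nt on a log axis, 1 point per gene tested in RPF with a known length. Tmsb4x at 6.22 and Tmsb10 at 5.86 lie above nearly all other short transcripts, with Ptma, Cfl1 and Actb marked for comparison.

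Other short genes tested in both assays had lower ratios than the members. Of these genes, 8 encode proteins of at most 60 residues, and their log2 ratios ran from -0.20 for Rps29 to 2.58 for Tomm7 with a median of 1.88. Rps29 is a small ribosomal subunit protein and Tomm7 a part of the mitochondrial import pore. Genes tested in both assays leave out those that failed the filter on low RNA counts, as Tmsb10 did. Among those left out were Gm20594 (log2 ratio 6.02) and Ost4 (5.16), both with proteins of 37 residues. The 317 other genes with transcripts of at most 800 nt had a median of 0.54 and a highest value of 3.27, and the medians were 0.21 for longer transcripts of up to 1600 nt, -0.12 for those of up to 3200 nt and -0.33 above 3200 nt. Across 12229 genes the ratio had a Spearman correlation of -0.195 with transcript length, given as a description because genes share libraries. In the RNA libraries the median deviation of the 317 short genes from their own mean ran from -0.26 to 0.23 (log2), while that of Tmsb4x ran from -0.97 in basal replicate 4 to 0.54 in basal replicate 3. A median over many genes varies less than a single gene with 38 to 103 reads, so these ranges do not set Tmsb4x apart. Whether recovery of short RNAs had a part in the ratios was not tested.

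Other actin and thymosin genes had far lower ratios. Actb had basal ratios of 0.802 to 1.26 and Actg1, the gamma-actin, of 1.12 to 1.55. The monomer binders lay higher, with 2.57 to 4.39 for profilin Pfn1, 4.09 to 6.90 for the brain profilin Pfn2 and 4.06 to 4.38 for cofilin Cfl1. Prothymosin alpha (Ptma) and parathymosin (Ptms), which are unrelated in sequence to the beta thymosins, had 3.41 to 26.4 and 3.17 to 13.3. None of these ranges reached the lowest value of Tmsb4x (51.2) or Tmsb10 (56.1) in basal lysates. Divided by the lengths counted, the mean basal ratio was 761 for Tmsb4x and 536 for Tmsb10, against 1.80 for Actb, 2.41 for Actg1, 8.43 for Pfn1, 34.2 for Pfn2, 22.5 for Cfl1, 43.5 for Ptma and 30.2 for Ptms.

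**Figure D3:**
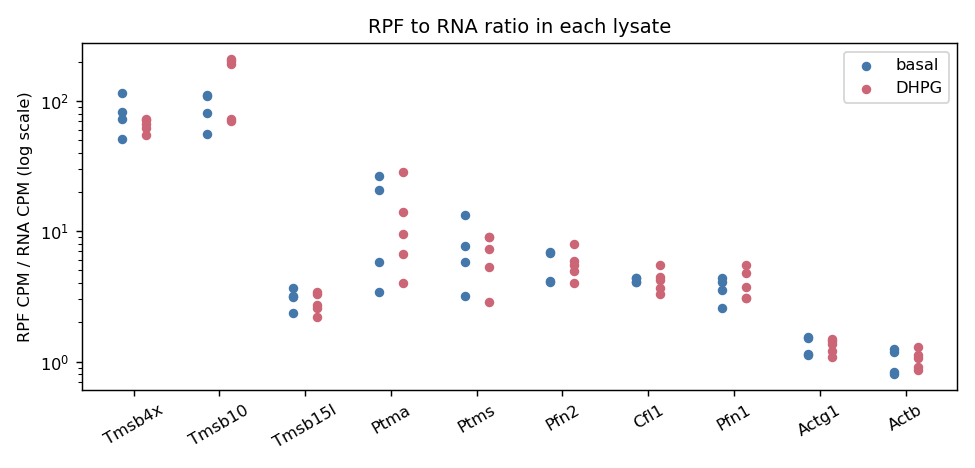
RPF CPM divided by RNA CPM in each of 4 basal (blue) and 5 DHPG (red) lysates on a log axis, for the beta thymosins, the alpha thymosins, profilins, cofilin and actins. Both members lie above 50 in every lysate, Ptma spreads from 3.41 to 28.6, and the actins lie near 1.

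The remaining beta thymosins were scarce. Tmsb15a had 0 counts in all 9 RNA and all 10 RPF libraries, which allows up to 3 counts in each. Tmsb15b1 and Tmsb15b2 had at most 1 RNA read in a library, and 4 to 24 and 2 to 34 RPF fragments. Tmsb15l had 14 to 29 RNA reads and 47 to 201 RPF fragments, with a ratio of 2.34 to 3.70 in basal lysates. These last 3 genes overlap and share sequence, so the split of reads between them is uncertain.

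DHPG against basal slices asked which RNAs and RPFs respond within minutes of receptor activation. Replicate numbers were taken as the batches of the study and kept as pairs. Tmsb10 RPF was higher after DHPG in 4 of 5 pairs, by 1.13-, 1.28-, 1.23- and 1.21-fold in pairs 1 to 4, and was 0.975-fold in pair 5. Its fitted log2 fold change was 0.23 ± 0.05 (SE, 95% interval 0.14 to 0.32), with basal values of 46.9 to 67.4 CPM that overlap the DHPG values of 57.0 to 86.2 CPM. Tmsb4x RPF was close to its basal level in most pairs, with 1.07-, 0.999-, 1.19-, 1.002- and 0.963-fold in pairs 1 to 5 and a fitted log2 fold change of 0.06 ± 0.03 (SE, interval -0.01 to 0.13).

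By the adjusted p of edgeR's quasi-likelihood test at 0.05, 29 of 13208 genes were called in RPF, which is 0.22% of the genes tested, and Tmsb10 was among them while Tmsb4x was not. Since the genes were chosen with this result known, nothing is read from that count. Without replicates as a block edgeR called 0 genes, with 0.22 for Tmsb10 that fell short of the threshold. Without replicate 2 the Tmsb10 value was 0.18 and without replicate 3 it was 0.20, and both fell short. DESeq2 with the block gave 0.22 but no adjusted p for Tmsb10, while ComBat followed by DESeq2, the study's own order of steps, gave 0.23, which passed, beside 427 genes called in all. For Tmsb4x the value was 0.01 without replicate 3.

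**Figure D4:**
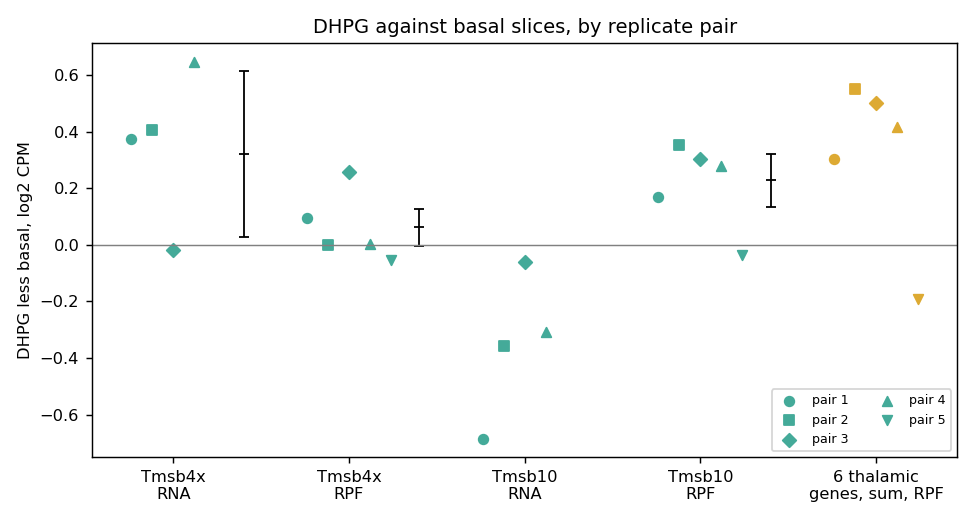
Difference of log2 CPM, DHPG less basal, for each replicate pair (symbols) of both genes in RNA and RPF, and at right for the summed CPM of 6 genes known from thalamus in RPF. Black bars are fitted log2 fold changes with 95% intervals, which Tmsb10 RNA lacks because it was not tested. Tmsb10 RPF lies above 0 in pairs 1 to 4 and just below it in pair 5. The thalamic genes were picked from those called higher in RPF, so rises of their sum follow from that choice.

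Markers of other tissues and cells were set beside the Tmsb10 values in the RPF libraries. Over all genes tested in RPF, 51.4% had a log2 fold change above 0. Among the 24 genes called higher in RPF, 6 are known from thalamus, a neighbour of the hippocampus: Prkcd, Shox2, Slc17a6, Tcf7l2, Tnnt1 and Zic1, picked after their values were seen. Their summed RPF level changed 1.23-, 1.46-, 1.42-, 1.33- and 0.876-fold in pairs 1 to 5. These genes were called higher in the same fit as Tmsb10, so rises in most pairs follow from that choice. In RNA of the same replicate numbers the sum was higher in 4 of 4 pairs, by 1.13- to 1.51-fold. Those RNA libraries were taken to share lysates with the RPF libraries, so their rise is not independent of that choice either. Of 10 microglia markers all were above 0 in RPF (median log2 fold change 0.10, 0 called), with sums of 529 to 760 CPM in basal and 613 to 825 CPM in DHPG libraries and a higher sum in 5 of 5 pairs, pair 5 included. Of 10 oligodendrocyte markers 8 were above 0 (median 0.09, 1 called, the myelin gene Mag), with sums of 4563 to 9416 CPM in basal and 5296 to 10670 CPM in DHPG libraries, and the sum was higher in 4 of 5 pairs and lower in pair 5. All of 10 astrocyte markers were above 0 (median 0.07, 0 called), with sums of 6071 to 7301 CPM in basal and 6214 to 7658 CPM in DHPG libraries, higher in 5 of 5 pairs. Of 10 endothelial markers 1 was above 0 (median -0.13, 0 called), with sums of 90.4 to 128.2 and 95.6 to 127.9 CPM, higher in 3 of 5 pairs. No marker of these 4 lists was at 0 in any library. Of 10 pyramidal and granule neuron markers 8 were above 0 (median 0.02, 0 called), with a higher sum in 4 of 5 pairs. Of 10 interneuron markers 6 were above 0 (median 0.01, 1 called), with a higher sum in 4 of 5 pairs. Only 2 of 8 choroid plexus markers were tested, and the sum of all 8 was higher in 2 of 5 pairs. The part of these tissues and cells in the Tmsb10 values was not tested.

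In RNA, Tmsb4x was higher after DHPG in 3 of 4 pairs, by 1.30-, 1.32- and 1.56-fold in pairs 1, 2 and 4, and was 0.987-fold in pair 3. The fitted log2 fold change was 0.32 ± 0.14 (SE, interval 0.03 to 0.61), and DHPG replicate 5, which has no basal partner, did not enter this estimate. The value was 0.20 without the replicate block. Over all genes tested in RNA, 52.1% had a log2 fold change above 0. Of 10 oligodendrocyte markers all were above 0 in RNA (median 0.16, 0 called), with sums of 2828 to 5874 CPM in basal and 3257 to 6727 CPM in DHPG libraries, higher in 4 of 4 pairs. All of 10 pyramidal and granule neuron markers were above 0 as well (median 0.09, 0 called), with sums of 3908 to 6460 and 4352 to 6462 CPM, higher in 4 of 4 pairs. Of 10 microglia markers 4 were above 0 (median -0.01, 0 called), with sums of 699 to 1045 and 683 to 995 CPM, higher in 2 of 4 pairs. Of 10 astrocyte markers 8 were above 0 (median 0.07, 0 called), with a higher sum in 3 of 4 pairs. Endothelial markers had 3 of 10 above 0 (median -0.12, 0 called), with a higher sum in 1 of 4 pairs. Interneuron markers had 2 of 10 above 0 (median -0.05, 0 called), with a higher sum in 2 of 4 pairs. Only 1 of 8 choroid plexus markers was tested, and the sum of all 8 was higher in 3 of 4 pairs. The part of these cells in the Tmsb4x values was not tested. At an adjusted p of 0.01 edgeR called 1 of 12935 genes in RNA, Prkcd, or 0.00773% of those tested, and Tmsb4x was not called. Tmsb10 RNA was lower in each of 4 pairs by read number, from 5 to 3, 3 to 2, 7 to 6 and 3 to 2 reads, differences that counts of this size cannot resolve.

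From basal to DHPG the Tmsb4x ratio of RPF to RNA was 0.818-, 0.749-, 1.21- and 0.627-fold in pairs 1 to 4. The Tmsb10 ratio was 2.38-, 1.92-, 1.30- and 1.83-fold, but each of these values divides by the 2 to 7 RNA reads above, so no direction is read from them. The fitted change in translational efficiency (TE), the interaction of assay and treatment, was -0.25 ± 0.14 (SE, interval -0.53 to 0.04) for Tmsb4x, and it was -0.14 without the replicate block, -0.47 without replicate 3 and -0.15 without replicate 4. For Tmsb10 it was 0.71 ± 0.52 (SE, interval -0.34 to 1.77), and the gene entered this fit only through its RPF counts. edgeR called 0 of 13320 genes in TE (0%), with 871 at an unadjusted p under 0.05, and limma on the ratios of each lysate also called 0.

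Over 10 RPF libraries the log2 CPM of Tmsb4x and Tmsb10 had a Pearson r of 0.77, and 940 of 9418 genes were closer to Tmsb4x. The 3 genes closest to Tmsb4x in RPF were Tmem209 (r = 0.98), Lman1 (0.97), a cargo receptor between endoplasmic reticulum and Golgi, and Atad1 (0.97), a membrane ATPase. Closest to Tmsb10 were Reep5 (0.98), which shapes the endoplasmic reticulum, Selk (0.97), a selenoprotein of the same membrane, and Tram1l1 (0.94). In RNA, over 9 libraries and 9799 genes, Slc6a9 (0.99), a glycine transporter, Tmem63b (0.99), an ion channel, and Caskin2 (0.98) were closest to Tmsb4x. These are the highest of all the values computed, over libraries that share lysates and batches.

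The actin list held 27 genes: 2 actins, 15 monomer binders, 3 genes of monomer-sensing transcription, 5 thymosin partners or peptidases (Ilk, Parva, Lims1, Prep and Ace) and 2 alpha thymosins. All were tested in both assays, and edgeR called 0 in RNA and 0 in RPF, beside 0.00773% and 0.22% of all genes tested. At an unadjusted p under 0.05 were 3 and 2 of the list (11.1% and 7.41%), against 8.02% and 10.8% of all genes, so neither count sets the list apart. DESeq2 with the block and DESeq2 after ComBat likewise called 0 in both assays. They gave an adjusted p to 27 and only 17 of the list's genes in RNA, and to only 10 and 21 in RPF. In RNA 13 genes were above 0 and 14 below with a median log2 fold change of -0.01, beside 0.01 over all genes tested. In RPF 14 were above and 13 below with a median of 0.00, the same as over all genes tested (0.00).

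Actb had log2 fold changes of -0.02 in RNA (edgeR adjusted p = 0.963) and 0.02 in RPF (adjusted p = 0.859), and Actg1 of -0.01 (adjusted p = 0.980) and -0.02 (adjusted p = 0.866). Among monomer binders, the RPF values were 0.03 ± 0.03 (SE) for Pfn1, 0.03 ± 0.03 for Pfn2 and 0.03 ± 0.03 for Cfl1. In RNA, Cfl1 had 0.14 ± 0.07 (SE, edgeR adjusted p = 0.633). The monomer sensors Mkl1 (0.23) and Mkl2 (0.13), and Srf (0.12), with which they act, were above 0 in RNA. In the same order the values were 0.01, -0.01 and 0.08 in RPF and -0.22, -0.14 and -0.05 in TE. None of these values passed a threshold. Prep, the prolyl oligopeptidase that cleaves short peptides, had -0.11 ± 0.04 in RPF (SE, edgeR adjusted p = 0.287), the lowest value on the list there. Ptma had 0.01 ± 0.04 in RPF (SE, edgeR adjusted p = 0.965).

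**Figure D5:**
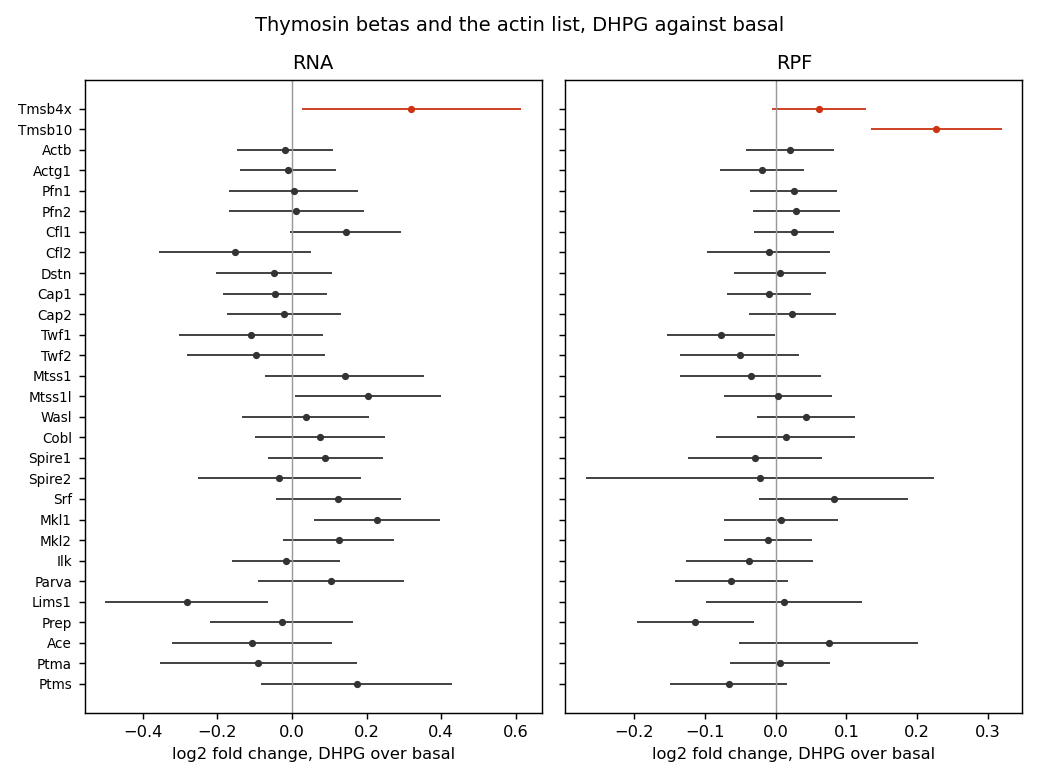
Fitted log2 fold change, DHPG over basal, with 95% intervals for the members (red) and the 27 genes of the actin list (black), RNA at left and RPF at right, on different horizontal scales. Tmsb10 lies at 0.23 in RPF and Tmsb4x at 0.32 in RNA, while the actins lie between -0.02 and 0.02.

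Library totals were 4870813 to 7793244 reads in RNA and 5692064 to 22092434 fragments in RPF. Libraries of one assay had correlations of log2 CPM from 0.954 to 0.992 in RNA and 0.986 to 0.997 in RPF. Pyramidal and granule neuron markers were not at 0 in any library, while choroid plexus markers in RNA summed to 26.1 to 38.0 CPM, with up to 5 of 8 at 0.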

How the data were processed

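RNA-seq and RPF libraries of wild-type slices were used (19 samples, all mapped to groups). The authors deposited 1 table for each assay with 20436 genes, whose values are RSEM expected counts in whole numbers. Per the study's methods, reads were deduplicated by molecular identifier and uniquely mapped to mm10, RPFs were counted over coding sequences without 30 nt at each end, and RNA over whole transcripts after alkaline fragmentation and size selection. A short gene thus offers few positions in either assay. A further 12 columns could not be assigned to any listed sample and were left out.

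The members and gene lists were chosen with earlier results of these data known. DHPG was compared with basal by edgeR 4.0.16 in R 4.3.3 (quasi-likelihood F test, TMM, filterByExpr, replicate number as block, Benjamini-Hochberg adjustment over all genes tested). Same-numbered libraries were taken as the batches of the study. Their deviations from the group means correlated at 0.31 to 0.74 in RNA and 0.26 to 0.52 in RPF. TE was the interaction of assay and treatment over all 19 libraries. Log2 CPM used TMM library sizes and a prior count of 2. Alternatives used DESeq2 1.42.0, sva 3.50.0 (ComBat) and limma 3.58.1. Intervals of summed ratios are exact binomial. Replicates were pools of mice whose overlap is not given in the sources used here.

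Named genes were the members, the 3 genes with the highest Pearson r to each at a mean of at least 10 CPM, the other beta thymosins and the actin list, with values always for the actins, Pfn1, Pfn2, Cfl1, Prep and Ptma and for any list gene past the threshold. Values of Ptms, Mkl1, Mkl2 and Srf, and the names Rps29 and Tomm7 at the ends of a range, were added after their values were seen. Gene models, lengths and sequences came from GENCODE for mm10, with a coding model for 19510 genes (95.5%).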

Additional observations from a re-analysis of the deposited data

Results flagged for a closer look

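In the basal RPF libraries the summed oligodendrocyte markers were 4563 CPM in replicate 4, far from the 8160 to 9416 CPM of the other 4 libraries. The gap came to 0.741 of the group's range. Replicate 4 was also lowest in the other 3 groups, with 5296 against 7482 to 10670 CPM in DHPG RPF, 2828 against 4884 to 5874 CPM in basal RNA and 3257 against 4891 to 6727 CPM in DHPG RNA, where the gap did not pass the limit. Tmsb4x (615 CPM) and Tmsb10 (46.9 CPM) were also lowest in that library, though neither stood apart by the same measure. Of 44 groups of values screened this way 1 stood out, and chance alone gives about 1 in 20. Without replicate 4 the Tmsb10 RPF log2 fold change was 0.22 and passed the threshold.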

How the results depend on the processing

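No member's log2 fold change turned direction under any alternative run. Tmsb10 RPF fell short of the threshold with no replicate block (0.22) and without replicate 2 or 3 (range over left-out replicates 0.18 to 0.29), and DESeq2 with the block gave it no adjusted p. It passed after ComBat (0.23). After ComBat, Tmsb4x RNA had no adjusted p. With a replicate left out Tmsb4x ranged from 0.01 to 0.09 in RPF, 0.23 to 0.48 in RNA and -0.47 to -0.15 in TE. Genes called without a replicate block were 0 in RNA and 0 in RPF. In RNA, 1 gene became 7 with no filter, 0 with at least 10 counts in every library, 0 by DESeq2 with the block, 100 after ComBat, and 0 to 22 with a replicate left out. In RPF, 29 became 96 with no filter, 427 after ComBat, and 3 to 71 with a replicate left out. In TE, 0 became 6 with no filter and 0 to 8 with a replicate left out. In the actin list 0 to 1 gene was called in RNA with a replicate left out (Mtss1l, without replicate 2). The log2 ratio was 9.57 for Tmsb4x and 9.07 for Tmsb10 per length, which adds the ratio of the lengths. For Tmsb10 it was 6.26 with a prior count of 0.5 and 6.33 in DHPG lysates, against 6.25 and 5.99 for Tmsb4x. Which of the 2 genes had the higher ratio thus depended on the setting. A smaller prior count pulls genes with few RNA reads down less. The cause of the other shifts was not tested. Depth limits Tmsb10 RNA, at 2 to 7 reads per library. With no filter its RNA log2 fold change was -0.50.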

Other observations

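A few other genes shared the high basal RPF to RNA ratio, and they are named after their values were seen. Gm20594 and Ost4, both with proteins of 37 residues, had 0 RNA reads in the 4 basal libraries together, against 79 to 662 and 80 to 228 RPF fragments per library, so their ratios were at least 200-fold and at least 90.5-fold when 3 counts are allowed over the group. Ost4 is a subunit of the oligosaccharyltransferase. Among genes tested in both assays the next highest log2 ratios after Tmsb4x belonged to Nrgn (4.43), the postsynaptic calmodulin-binding protein neurogranin, with 78 residues, and to Ubald1 (4.11), Cplx2 (3.86), which codes for complexin 2 of the synaptic vesicle release machinery, and Hnrnpd (3.80). The RNA-binding proteins Hnrnpa2b1 (3.78), Hnrnph3 (3.65) and Ssb (3.63) followed. Of all genes tested in RPF, the 4 highest log2 ratios were 6.22 (Tmsb4x), 6.02 (Gm20594), 5.86 (Tmsb10) and 5.16 (Ost4). Their transcripts have 449 to 1144 nt. The transcript of Hmgn5, next in that order at 4.46, has 1934 nt. Those of Nrgn, Ubald1 and Cplx2 have 1453, 1851 and 4928 nt, and those of Hnrnpd, Hnrnpa2b1, Hnrnph3 and Ssb have 1662 to 6811 nt. The part of transcript length in these ratios was not tested.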
